A study of Mus musculus with 24 samples.

Results

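The 12 libraries described here are the 6 Th1 and the 6 Th17 libraries among the 24 bulk RNA sequencing libraries of a study of mouse T cells polarized in culture. They were chosen by the cell type given in their labels and in the column names of the deposited count table. All 12 came from wild type (WT) cells. In each cell type 1 library received only the vehicle DMSO, and 5 libraries each received 1 agonist of the kappa opioid receptor at 0.1 µM for up to 5 days. The agonists are perhydroquinoxaline derivatives, called by the codes WMS-64, WMS-75, WMS-76, WMS-83 and WMS-200. The full codes in the sample labels carry other final digits in Th17 than in Th1 for all agonists but WMS-76, while the treatment protocol lists 5 compounds, and libraries of one series name were paired as 1 treatment. The other 12 libraries of the study, 6 of regulatory T cells (Treg) and 6 of activated CD8 T cells, served only for reference levels.

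T helper cells take on different fates according to the cytokines present when they are activated. Th1 cells form under interleukin 12 and interferon gamma through the transcription factors STAT4 and T-bet, secrete interferon gamma and arm macrophages against intracellular microbes. Th17 cells form under transforming growth factor beta (TGF-beta) with interleukin 6 through STAT3, secrete interleukin 17 and act at mucosal surfaces and in autoimmune inflammation.

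The deposited table gives reads per gene. The Th1 libraries held 16933512 to 21946887 counted reads and the Th17 libraries 16271300 to 21608525. Th1 against Th17 made up the first principal component of the 12 libraries, with 83.2% of the variance, and the second took 4.65%. On that second component the Th17 libraries of WMS-75 and WMS-76 lay at opposite ends, and the share of reads from ribosomal protein genes was 8.52% in the former and 11.3% in the latter. One library titled as Th17 with WMS-83 is Th1 by its source name, its cell type label and its column name, and was taken as Th1. It held 500 CPM of Ifng and 0.256 CPM of Il17f (CPM, reads of a gene relative to the scaled size of its library). The other 5 Th1 libraries had 495 to 642 CPM of Ifng and 0.495 to 1.84 CPM of Il17f, so its Il17f level was the lowest of the 6, and the Th17 libraries had 648 to 945 CPM of Il17f. A number written after WT in the column names is 4 in all 6 Th1 libraries. In Th17 the DMSO library has 2, the WMS-83 library 3 and each of the remaining 4 libraries 1, so whatever it stands for cannot be told apart from the cell type. No label says that the libraries came from separate cultures or animals, and the p-values below measure only the spread between these libraries, which may be technical.

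The defining cytokine of each fate separated the libraries completely. Ifng, the gene of interferon gamma, had a lowest, median and highest level of 495, 529 and 642 CPM in Th1 and of 2.09, 4.34 and 6.96 CPM in Th17. That difference was 6.87 ± 0.26 on the log2 scale (Th1 minus Th17, ± standard error, here and below), or 117-fold. Tbx21, which encodes T-bet, ran from 171 over 189 to 206 CPM in Th1 and from 7.86 over 9.06 to 10.5 CPM in Th17, a difference of 4.37 ± 0.07. Il17f was read at 0.256, 0.876 and 1.84 CPM in Th1 and at 648, 756 and 945 CPM in Th17, a difference of -9.62 ± 0.31 that made it 786-fold higher in Th17. For Il17a the values were 9.38, 11.1 and 22.1 CPM in Th1 and 105, 131 and 190 CPM in Th17, a difference of -3.40 ± 0.29. The adjusted p in edgeR's quasi-likelihood test was 7.26e-07 for Ifng, 2.52e-18 for Tbx21, 3.18e-07 for Il17f and 0.000171 for Il17a. No Th1 library overlapped a Th17 library for any of these 4 genes. The highest Il17a level among the Th1 libraries was that of WMS-83, at 22.1 CPM against 9.38 to 14.2 CPM in the others. Per kilobase of gene model the Th17 libraries had 386 CPM of Il17f and 115 CPM of Il17a on average, while the Th1 libraries had 0.492 and 11.0. The levels in the activated CD8 libraries, given as a reference, were 1294 to 1491 CPM for Ifng and 14.8 to 18.2 CPM for Il17a.

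The 250 bases before the annotated starts of both interleukin 17 genes are shown because these are the cytokines that define Th17, and because each holds 1 copy of the half-site that ROR receptors are known to bind. They are RefSeq sequences of GRCm38.p6, written 5′ to 3′ on the strand of the gene, with the letters AGGTCA or their reverse complement in capitals. The Il17a stretch is chr1:20730655-20730904 on the plus strand, with the match at -120 from the start, and the Il17f stretch is chr1:20784271-20784520 on the minus strand, with the match at -58.
Il17a: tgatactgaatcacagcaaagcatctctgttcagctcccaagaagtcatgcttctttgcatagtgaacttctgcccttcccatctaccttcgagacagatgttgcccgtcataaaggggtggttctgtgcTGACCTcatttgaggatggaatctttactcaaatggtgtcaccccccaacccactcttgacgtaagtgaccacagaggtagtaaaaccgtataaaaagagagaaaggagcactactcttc
Il17f: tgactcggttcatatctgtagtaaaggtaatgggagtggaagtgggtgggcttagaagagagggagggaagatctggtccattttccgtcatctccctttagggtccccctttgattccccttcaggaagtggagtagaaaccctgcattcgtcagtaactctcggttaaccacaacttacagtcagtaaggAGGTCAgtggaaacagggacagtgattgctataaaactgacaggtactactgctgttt
Both strands were searched in windows of 300 bases, 250 before and 50 after the start, around 9926 of the tested genes matched to RefSeq by symbol. AGGTCA was found in 12.3% of all these windows, in 14.0% of those of genes past 2-fold higher in Th17 and in 14.7% of those past 2-fold higher in Th1. The Ifng window held 1 copy too. On the lists of known lineage genes the share was 30% for the Th17 program and 26.3% for the Th1 program. A match is a description of the letters and not a binding site.

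**Figure D1:**
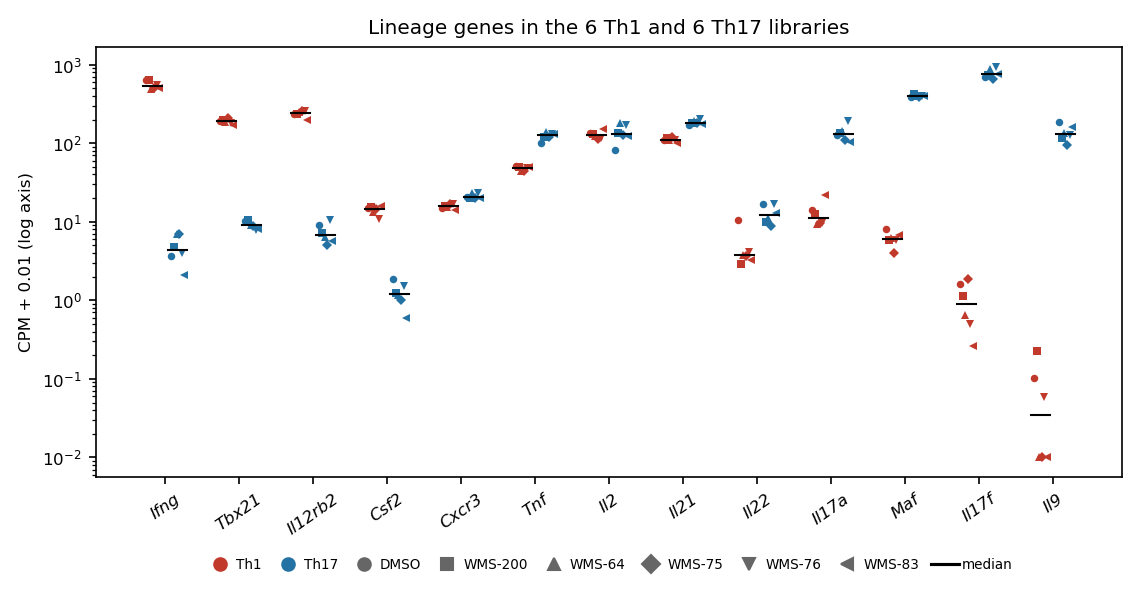
Level of 13 lineage genes in each library (CPM plus 0.01 on a log axis), with the 6 Th1 libraries in red, the 6 Th17 libraries in blue, the treatment as the shape and the median as a black line. Ifng, Tbx21, Il12rb2 and Csf2 lie higher in every Th1 library, Tnf, Cxcr3, Il21, Il17a, Maf, Il17f and Il9 in every Th17 library, and Il2 and Il22 overlap.

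A majority of the tested genes differed between both fates, most of them by less than 2-fold. Of 56748 genes in the table, 14053 had enough reads to be tested, and 7438 of these passed an adjusted p of 0.05 in edgeR's quasi-likelihood test with Benjamini-Hochberg adjustment, 52.9% of those tested. The calls were evenly divided, with 3717 genes (26.4%) higher in Th1 and 3721 (26.5%) higher in Th17. A stricter edgeR test, of a change larger than 2-fold, was passed by 1294 genes (9.21%), of which 642 (4.57%) were higher in Th1 and 652 (4.64%) higher in Th17. The median difference over all tested genes was 0.01 on the log2 scale. For 4894 genes (34.8%) the 6 libraries of one fate did not overlap the 6 of the other. Among called genes, 35 were at least 64-fold higher in Th1 and 31 at least 64-fold higher in Th17. With so large a share of all genes called, the lists below were read by how far their counts and medians lay from these backgrounds. The spread between libraries was wider in Th17, with a biological coefficient of variation of 0.124 against 0.0885 in Th1.

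**Figure D2:**
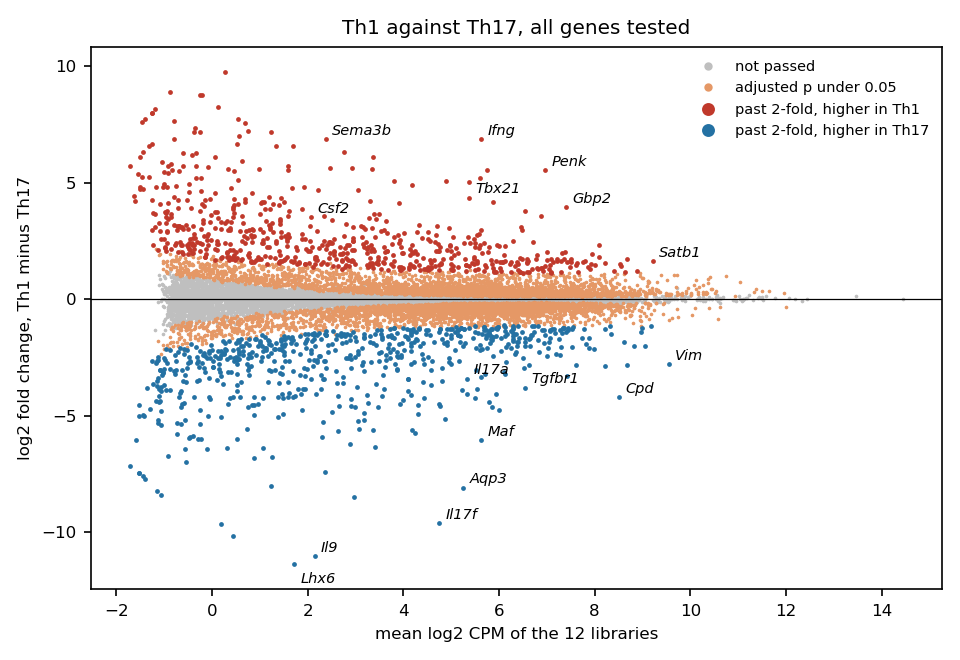
Difference between Th1 and Th17 for the 14053 genes tested, with the mean log2 CPM of the 12 libraries on the x axis and the log2 fold change (Th1 minus Th17) on the y axis, in grey for genes that did not pass and in orange for an adjusted p under 0.05. Red (642 genes) and blue (652 genes) passed the test of a change larger than 2-fold, and of the genes with a name in the plot Lhx6 and Il9 lie lowest and Ifng and Sema3b highest.

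Genes outside the classical programs were among those with the largest differences, taken over protein coding genes of at least 1 in mean log2 CPM whose groups did not overlap. On the Th1 side stood Selp (P-selectin, an adhesion receptor; 7.19 ± 0.25), Sema3b (a secreted semaphorin; 6.87 ± 0.17), Dnah7a (an axonemal dynein chain; 6.58 ± 0.18), Ramp3 (a coreceptor of the adrenomedullin receptor; 6.33 ± 0.19), Stra6 (the retinol uptake receptor; 6.10 ± 0.15), Ifitm3 (an antiviral membrane protein; 5.63 ± 0.20) and Ermn (5.58 ± 0.11). Stra6 ran from 74.0 over 83.4 to 103 CPM in Th1 and from 0.528 over 1.09 to 2.46 CPM in Th17. Sema3b was at 39.2 to 69.9 CPM in Th1 and 0.180 to 0.749 CPM in Th17. On the Th17 side stood Aqp3 (the aquaglyceroporin of glycerol uptake; -8.08 ± 0.09), Olfm2 (-8.47 ± 0.24), Tmeff1 (-8.00 ± 0.24), Gpr15 (a receptor for homing to the large intestine; -7.40 ± 0.19), Mical2 (an actin oxidase; -6.76 ± 0.21), Apol9b (-6.37 ± 0.31), Fbxo2 (-6.33 ± 0.13) and Sh3bgrl2 (-6.23 ± 0.11). Aqp3 had 1.94, 2.22 and 2.59 CPM in Th1 and 558, 611 and 693 CPM in Th17. Lhx6, a homeobox gene known from interneurons, had 3 reads over the 6 Th1 libraries and 10099 over the 6 Th17 libraries, a ratio of 3313 (95% counting interval 1134 to 16060, which covers counting error only). Its Th17 range was 74.7 to 94.5 CPM, with 0.254 to 2.84 CPM in the Treg libraries.

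The genes with the largest differences in CPM were mostly of other kinds. Higher in every Th1 library were Hsp90ab1 and Hspa8 (chaperones), Tmsb4x (thymosin beta 4, which binds actin), Pkm and Eno1 (glycolytic enzymes), Rps2 and Pabpc1. Pkm ran from 2205 over 2480 to 2541 CPM in Th1 and from 1095 over 1230 to 1365 CPM in Th17. Rps2, like other ribosomal protein genes, has pseudogene copies that could share its reads. Higher in every Th17 library were Vim (vimentin, an intermediate filament), Cpd (carboxypeptidase D), Akap13, Igfbp4, Aplp2, Myh9 (nonmuscle myosin) and Malt1 (the paracaspase of antigen receptor signalling). Vim had 255, 296 and 309 CPM in Th1 and 1688, 1897 and 2313 CPM in Th17, a difference of -2.76 ± 0.08. Cpd had 73.1, 85.6 and 95.2 CPM in Th1 and 1454, 1578 and 1595 CPM in Th17, a difference of -4.18 ± 0.07.

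The Th1 program divided into members that rose and members that did not. Of its 25 tested genes 15 were higher in Th1, 4 were higher in Th17 and 6 did not pass, with a median log2 difference of 0.84 against 0.01 for all genes. Past 2-fold were 11 and 2. The interleukin 12 axis was higher in Th1: Il12rb2, the inducible subunit of the interleukin 12 receptor, had 198, 244 and 258 CPM in Th1 and 5.07, 6.86 and 10.5 CPM in Th17 (5.05 ± 0.12). Its partner Il12rb1 (1.63 ± 0.05) and the signal transducer Stat4 (3.05 ± 0.10) were also higher in every Th1 library. So were Hlx (4.78 ± 0.35) and Eomes (4.24 ± 0.15), transcription factors that act with T-bet. Il18r1 and Il18rap, which form the interleukin 18 receptor, did not pass, with differences of 0.00 ± 0.06 and -0.11 ± 0.07. Nor did Il2 (-0.06 ± 0.18), Bhlhe40 (0.09 ± 0.06), Havcr2 (0.31 ± 0.21) and Ly6c2 (0.30 ± 0.16). Members of the list that went the other way were Tnf (-1.37 ± 0.07), Lta (lymphotoxin alpha; -1.22 ± 0.06), Xcl1 (-0.77 ± 0.13) and Cxcr3 (-0.43 ± 0.08). Tnf had 43.7, 49.0 and 50.5 CPM in Th1 and 100.3, 126 and 138 CPM in Th17, without overlap.

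The Th17 program was more uniform. Among 24 tested genes 19 were higher in Th17, 4 were higher in Th1 and 1, Batf, did not pass (0.07 ± 0.08). Past 2-fold were 16 and 2, and the list's median was -2.45. Rora, a nuclear receptor gene of the Th17 fate, had 13.4, 14.7 and 18.2 CPM in Th1 and 223, 249.96 and 285 CPM in Th17 (-4.05 ± 0.07). Differences as large or larger were found for Ccr6 (-5.25 ± 0.15), Ccl20 (the ligand of CCR6; -4.88 ± 0.16), Tmem176a (-5.15 ± 0.07), Tmem176b (-4.56 ± 0.07) and Lgals3 (galectin 3; -4.62 ± 0.07). Maf, a transcription factor of interleukin 10 and Th17 genes, had 3.99, 6.002 and 8.18 CPM in Th1 and 385, 397 and 428 CPM in Th17 (-6.03 ± 0.10). Stat3 was lower in Th1 by less than 2-fold (-0.88 ± 0.05), as was Il21 (-0.75 ± 0.06). The 4 members higher in Th1 were Csf2 (3.52 ± 0.19), Gpr65 (1.24 ± 0.08), Il23r (the receptor of interleukin 23, linked to pathogenic Th17 cells; 1.20 ± 0.18) and Irf4 (0.18 ± 0.05). Csf2, the gene of the growth factor GM-CSF, had 10.8, 14.6 and 15.8 CPM in Th1 and 0.581, 1.19 and 1.86 CPM in Th17. Il23r had 4.69, 5.43 and 6.09 CPM in Th1 and 1.76, 2.31 and 3.19 CPM in Th17, so the groups did not overlap for either gene.

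Genes of other helper fates and of regulatory T cells were also measured. Il9, the cytokine of Th9 cells, which form under TGF-beta with interleukin 4, had 0 to 0.213 CPM in Th1 and 94.0, 131 and 185 CPM in Th17 (-11.01 ± 0.18, on 7 reads in all Th1 libraries). Of 7 tested Th2 genes 1 was higher in Th1, the interleukin 33 receptor Il1rl1 (2.51 ± 0.17), and 3 were higher in Th17, Il9, Ccr4 (-2.36 ± 0.07) and Ccr8. Gata3, the Th2 regulator, did not pass (-0.13 ± 0.07). Among 19 tested Treg genes 7 were higher in Th1 and 12 higher in Th17, with a median of -0.39. The costimulatory receptor gene Tnfrsf4 (1.66 ± 0.06) was higher in Th1. Those higher in Th17 included Foxp3 (-2.25 ± 0.10), Il10 (-3.24 ± 0.17), Itgae (the integrin CD103; -4.61 ± 0.15) and Nt5e (the ectonucleotidase CD73; -4.76 ± 0.09). Foxp3, the lineage factor of regulatory cells, had 5.48, 5.82 and 10.1 CPM in Th1 and 26.0, 33.6 and 35.7 CPM in Th17, while the Treg libraries had 156 to 363 CPM. Among 10 tested genes of follicular helper cells Cxcr5 (-2.63 ± 0.10) and Tox2 (-4.16 ± 0.33) were higher in Th17, and Cd200 (1.96 ± 0.06) and Sh2d1a (1.40 ± 0.09) higher in Th1.

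Among secreted ligands the cytokines were divided and the chemokines leaned to Th1. Of 32 tested cytokine genes 11 were higher in Th1 and 16 higher in Th17 (median -0.41). That list counts Penk, a neuropeptide precursor described with the opioid genes. Of 11 tested chemokine genes 9 were higher in Th1 and 2, Ccl20 and Xcl1, higher in Th17 (median 1.66). Il3, a hematopoietic growth factor encoded next to Csf2, had 5.12, 12.4 and 16.7 CPM in Th1 and 0.0581, 0.458 and 0.912 CPM in Th17 (4.39 ± 0.37). Tnfsf11 (RANK ligand; 1.92 ± 0.09) was higher in Th1. Csf1, the macrophage growth factor gene, had 3.78, 5.19 and 6.78 CPM in Th1 and 34.7, 40.6 and 46.1 CPM in Th17 (-3.00 ± 0.12). Il22, which acts on epithelial cells, had 2.88 to 10.6 CPM in Th1 and 8.90 to 16.9 CPM in Th17 (-1.53 ± 0.17), and the Th1 DMSO library, at 10.6 CPM, overlapped the Th17 libraries. Cxcl10, which attracts cells that carry CXCR3, had 10.3, 11.2 and 12.6 CPM in Th1 and 0.256, 0.807 and 1.62 CPM in Th17 (3.81 ± 0.26). Cxcl11, a ligand of the same receptor, had 346 reads over the Th1 libraries and 1 over the Th17 libraries, a ratio of 352 with a counting interval from 63.1 to 13890. Ccl3 (2.21 ± 0.16), Ccl5 (3.56 ± 0.22) and Ccl22 (1.66 ± 0.17) were higher in every Th1 library, and Ccl4 rose by 0.99 ± 0.15.

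**Figure D3:**
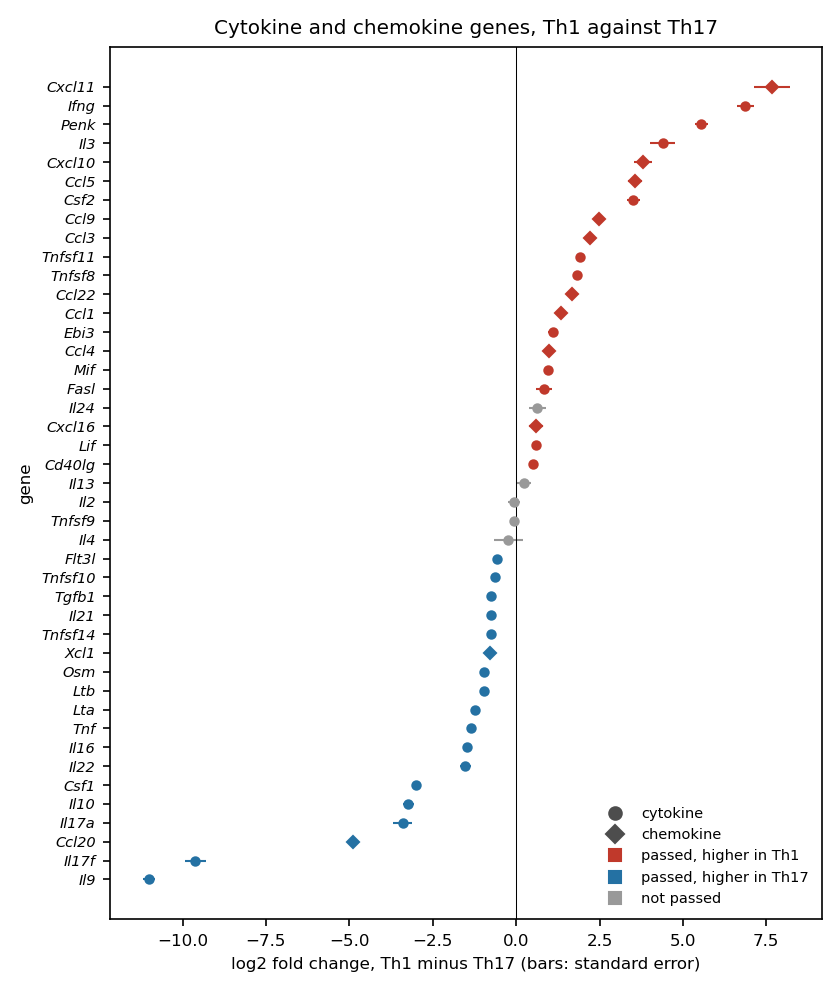
Log2 fold change (Th1 minus Th17, x axis) of the tested genes of the cytokine list (circles, Penk included) and chemokine genes (diamonds), with bars of 1 standard error, in red where they passed higher in Th1, in blue where they passed higher in Th17 and in grey where they did not pass. Cxcl11, Ifng and Penk lie at one end, Il9, Il17f and Ccl20 at the other.

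Receptor genes were divided too. Among 36 tested cytokine receptor genes 11 were higher in Th1 and 18 higher in Th17 (median -0.20). Besides the interleukin 12 receptor, Il15ra (3.17 ± 0.11) and Il10ra (2.75 ± 0.09) were higher in Th1. In Th17 the receptors of its inducing cytokines were higher: Tgfbr1, the type I TGF-beta receptor kinase, had 20.9, 25.9 and 27.4 CPM in Th1 and 311, 346 and 380 CPM in Th17 (-3.78 ± 0.07). Tgfbr2 (-1.18 ± 0.05), Il6ra (-1.53 ± 0.07), Il6st (gp130, its signalling partner; -1.36 ± 0.05) and Il1r1 (-1.32 ± 0.15) differed in the same direction. The signalling chain of the interferon gamma receptor, Ifngr2, had 14.4, 15.1 and 18.9 CPM in Th1 and 50.4, 57.9 and 61.8 CPM in Th17 (-1.84 ± 0.07), opposite in direction to Ifng itself. Il17re, a subunit of the interleukin 17C receptor, was higher in Th17 (-2.41 ± 0.27).

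Homing receptors were divided as well, 14 of 34 tested genes being higher in Th1 and 16 in Th17 (median -0.03). The integrin gene Itga4 (2.78 ± 0.07) was higher in Th1. Cxcr4 (-3.94 ± 0.11), Cxcr6 (-2.68 ± 0.09) and Cx3cr1 (-5.90 ± 0.48, with a highest Th1 level of 0.185 CPM) were higher in Th17, as was Ltb4r1, the leukotriene B4 receptor (-1.86 ± 0.17). Of 18 tested costimulatory receptor genes 13 were higher in Th1 and 3 higher in Th17 (median 1.02). Slamf7 (2.07 ± 0.07), Tnfrsf9 (4-1BB; 1.64 ± 0.07) and Cd28 (1.02 ± 0.06) rose, whereas Tnfrsf13b (TACI, better known from B cells) had 31.0 to 37.0 CPM in Th1 and 239 to 289 CPM in Th17 (-2.94 ± 0.06). Of 15 tested inhibitory receptor genes 10 were higher in Th1, among them Tigit (2.18 ± 0.12), Btla (1.75 ± 0.05) and Lilrb4a (2.68 ± 0.32), and 4 higher in Th17, among them Pdcd1, the gene of PD-1 (-1.27 ± 0.06). Pdcd1 had 104, 120 and 126 CPM in Th1 and 252, 282 and 329 CPM in Th17. Lilrb4a has close relatives at its locus that could share its reads. Among the 15 tested semaphorin, plexin and neuropilin genes 8 were higher in Th1 and 5 in Th17, with Plxnc1 (4.92 ± 0.08) and Sema6d (-5.57 ± 0.13) far apart.

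Transcription factors differed in both directions. Of 84 tested genes on the T cell list 30 were higher in Th1 and 40 higher in Th17 (median -0.12), and 16 and 18 were past 2-fold. Besides Hlx, Tbx21 and Eomes, the factors higher in Th1 included Etv5, an ETS factor downstream of growth factor signalling (63.0, 80.9 and 90.5 CPM against 1.73, 2.55 and 2.87 CPM; 5.07 ± 0.12). Its close relative Etv4 (3.20 ± 0.22), the B cell factor Ebf1 (3.01 ± 0.21), Gfi1 (2.83 ± 0.07), Nr4a2 (2.42 ± 0.07), Irf1 (2.30 ± 0.06), Prdm1 (Blimp-1; 2.11 ± 0.17) and Satb1 (a chromatin organizer; 1.64 ± 0.06) were higher too. Besides Maf and Rora, the factors higher in Th17 included Ahr, the aryl hydrocarbon receptor (8.52, 9.79 and 10.8 CPM against 159, 161 and 176 CPM; -4.06 ± 0.07). Nr1d1 (the clock repressor REV-ERBα; -4.48 ± 0.09), Klf10 (a TGF-beta induced factor; -4.25 ± 0.08), Rara (a retinoic acid receptor; -3.11 ± 0.07), Klf2 (-2.61 ± 0.11), Ikzf3 (-1.73 ± 0.06) and Runx1 (-1.67 ± 0.05) had the same direction. Tcf7, the gene of TCF-1, fell by 0.16 on the log2 scale (± 0.06), which passed edgeR's test with an adjusted p of 0.0283. Genes of early activation were balanced, with 8 of 24 tested higher in Th1 (Nr4a2, Atf3 at 1.30 ± 0.09) and 8 higher in Th17 (Egr3 at -1.01 ± 0.07, Jun at -0.99 ± 0.05).

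Genes of the interferon gamma response were higher in Th1 almost throughout. Of 32 tested members 28 were higher in Th1 and 2, Socs1 (-0.36 ± 0.06) and Ifi47 (-0.22 ± 0.06), higher in Th17, with 21 past 2-fold in Th1 and a median of 1.58. Guanylate-binding proteins, the GTPases that attack vacuoles of intracellular microbes, had large differences: Gbp2 had 606, 666 and 735 CPM in Th1 and 34.7, 45.3 and 47.6 CPM in Th17 (3.96 ± 0.08). Gbp5 (3.09 ± 0.06), Gbp7 (3.09 ± 0.11) and Gbp10 (5.74 ± 0.20) were higher too. These genes form a family of close copies, so the division of reads among them is uncertain. Iigp1, an immunity-related GTPase (5.63 ± 0.16), and Irf8 (1.22 ± 0.05) rose as well. Of 27 tested genes of the type I interferon response, a list that shares many targets with the former, 16 were higher in Th1 and 2 higher in Th17 (median 0.36). Oas1a (3.63 ± 0.36), Oas3 (3.48 ± 0.10) and Isg15 (2.74 ± 0.39) rose, whereas Ifit2 (-0.30 ± 0.10) and Ifi27 (-0.56 ± 0.07) were higher in Th17.

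The upstream sequences of 3 interferon response genes are shown because their group moved together and because each holds 1 interferon-stimulated response element, searched on both strands as GAAA, 2 bases of any kind and GAAA, and given in capitals as the letters or their reverse complement. They are RefSeq sequences of GRCm38.p6, 250 bases long, 5′ to 3′ on the strand of the gene, ending at the base before the annotated start. Gbp2 is chr3:142620413-142620662 on the plus strand with the match at -59 from the start, Gbp5 is chr3:142496684-142496933 on the plus strand with the match at -165, and Cxcl10 is chr5:92348890-92349139 on the minus strand with the match at -213.
Gbp2: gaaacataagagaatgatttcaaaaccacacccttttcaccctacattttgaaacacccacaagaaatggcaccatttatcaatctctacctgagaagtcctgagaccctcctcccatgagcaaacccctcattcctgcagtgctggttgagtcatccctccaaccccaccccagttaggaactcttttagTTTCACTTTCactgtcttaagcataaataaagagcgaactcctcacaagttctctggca
Gbp5: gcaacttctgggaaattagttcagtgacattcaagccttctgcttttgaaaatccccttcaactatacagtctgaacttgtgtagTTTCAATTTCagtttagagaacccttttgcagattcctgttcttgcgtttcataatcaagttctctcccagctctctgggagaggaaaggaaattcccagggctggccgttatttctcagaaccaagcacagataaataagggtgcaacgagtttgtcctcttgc
Cxcl10: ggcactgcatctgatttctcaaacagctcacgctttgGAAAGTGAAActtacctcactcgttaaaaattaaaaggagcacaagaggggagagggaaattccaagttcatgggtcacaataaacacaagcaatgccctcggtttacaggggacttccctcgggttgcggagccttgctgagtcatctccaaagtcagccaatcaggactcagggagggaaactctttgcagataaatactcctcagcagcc
The element was present in 12 of 21 matched windows of the interferon gamma list (57.1%), in 8.44% of the windows of genes past 2-fold higher in Th1, in 2.75% of those past 2-fold higher in Th17 and in 3.11% of all windows. All 4 matched Gbp genes held it. The list was in part known for such elements when it was written, so this share describes the list.

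Genes of TGF-beta signalling were mostly higher in Th17. Of 25 tested members 20 were higher in Th17 and 3 higher in Th1, among them Serpine2 (3.58 ± 0.07) and Id3 (2.10 ± 0.08), with a median of -1.15. Beside the receptors, these comprised the transducer Smad3 (-1.28 ± 0.06) and the inhibitors Smad7 (42.9, 45.8 and 50.02 CPM in Th1, 170, 189 and 201 CPM in Th17; -2.01 ± 0.06), Smad6 (-4.50 ± 0.47) and Pmepa1 (-2.39 ± 0.07). Tgfbi, a secreted matrix protein named for its induction by TGF-beta, had 1 read over the Th1 libraries and 1962 over the Th17 libraries, a ratio of 1931 with a counting interval from 347 to 76270. Targets of the aryl hydrocarbon receptor, a sensor of dietary and microbial ligands, showed the same direction. Of 12 tested 9 were higher in Th17 and 2 higher in Th1, Nqo1 (0.81 ± 0.24) and Slc7a5 (0.37 ± 0.06), with a median of -1.97. Cyp1b1 had 0.799, 1.75 and 2.27 CPM in Th1 and 33.3, 38.6 and 49.1 CPM in Th17 (-4.64 ± 0.18), and Cyp1a1 (-3.86 ± 0.15), Tiparp (-2.76 ± 0.09) and the feedback repressor Ahrr (-2.41 ± 0.19) were higher in Th17 as well. Sgk1, a salt-sensing kinase, was also higher in Th17 (-2.54 ± 0.15).

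**Figure D4:**
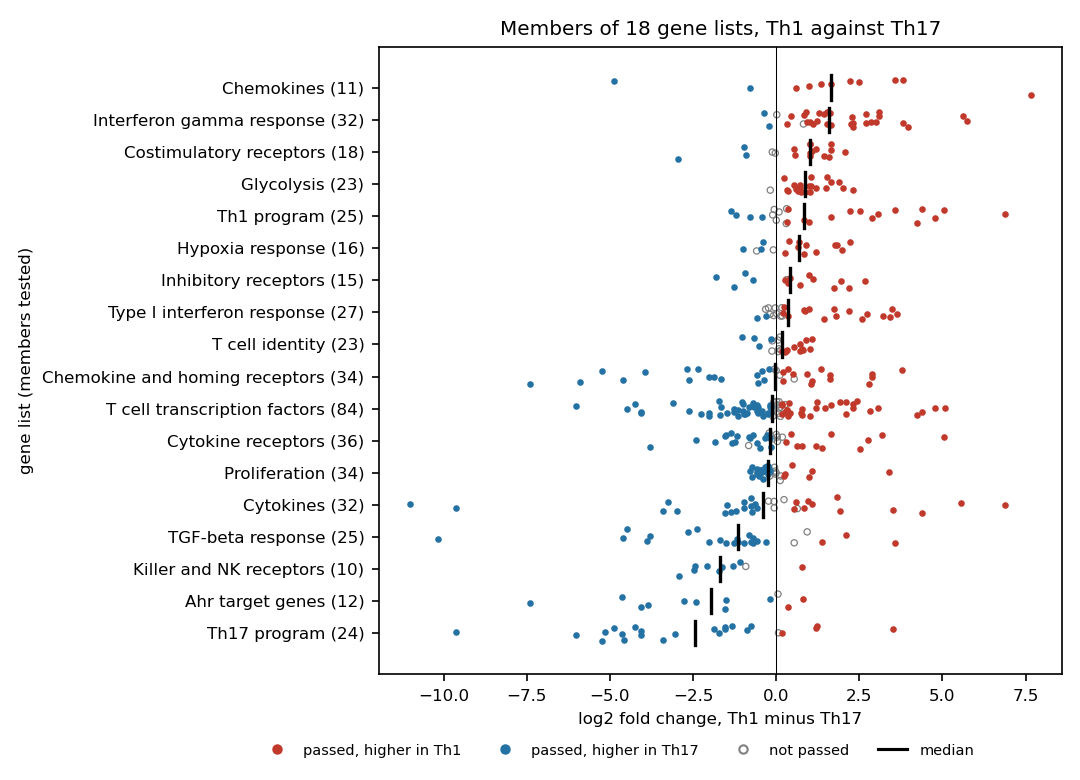
Log2 fold change (Th1 minus Th17, x axis) of every tested member of 18 gene lists, with the number tested in brackets, red for members that passed higher in Th1, blue for higher in Th17, open circles for those that did not pass and a black line for the median. Medians run from 1.66 for chemokines to -2.45 for the Th17 program.

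Among the metabolic lists, that of glycolysis leaned furthest to Th1. Of 23 tested glycolysis genes 22 were higher in Th1, none was higher in Th17, and 1, Pfkfb4, did not pass, with 7 past 2-fold and a median of 0.87. Hk2, the inducible hexokinase, had 195, 211 and 234 CPM in Th1 and 48.7, 58.6 and 62.3 CPM in Th17 (1.89 ± 0.06). The lactate exporter Slc16a3 (2.00 ± 0.08), Tpi1 (1.53 ± 0.07), Pkm (1.00 ± 0.07), Eno1 (0.87 ± 0.07) and Ldha (0.60 ± 0.07) rose. Gapdh showed 26.2 to 61.5 CPM in Th1 and 5.19 to 10.4 CPM in Th17 (2.32 ± 0.11), a value to be read with care because its processed pseudogenes can take its reads. Hif1a, the oxygen-regulated factor of this pathway, rose by 1.18 ± 0.05, and 11 of 16 tested hypoxia genes were higher in Th1 and 3 higher in Th17 (median 0.68). P4ha2 (2.22 ± 0.14) and Bnip3 (1.97 ± 0.15) rose, and Egln3, a hydroxylase that marks HIF for degradation, was higher in Th17 (-0.99 ± 0.07). The core ACGTG of the element that HIF binds was in 13 of 22 matched glycolysis windows (59.1%) and 26.0% of all windows. It was in 19.5% of the windows of genes past 2-fold higher in Th1 and 22% of those past 2-fold higher in Th17. HIF is known as a factor of glycolysis, so the share of 59.1% describes the list.

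Other metabolic lists differed by less. Of 27 tested nuclear genes of oxidative phosphorylation 11 were higher in Th1 and 1, Ndufv1, higher in Th17, with a median of 0.13. All but 1 of 12 tested mitochondrially encoded genes were higher in Th1 (median 0.74), but only 6 of them without the WMS-75 and WMS-76 pairs, 6 with a correction for gene length and 7 without the treatment term. The summed level of the 12 tested genes of this list was 2948 to 6031 CPM in Th1 and 1758 to 4577 CPM in Th17, so the libraries overlapped. Of 25 tested amino acid and one-carbon genes 17 were higher in Th1 and 2, the glutamine carriers Slc38a1 (-0.56 ± 0.05) and Slc38a2 (-0.33 ± 0.07), higher in Th17. Cholesterol synthesis leaned to Th17, with 12 of 22 tested genes higher there and 4 higher in Th1 (median -0.26). Of 24 tested genes of fatty acid and lipid handling 8 were higher in Th1, 6 were higher in Th17 and 10 did not pass (median 0.04). Cpt1a, which admits fatty acids to mitochondria, was higher in Th17 (-1.30 ± 0.06), and Acsl6, an acyl-CoA synthetase, higher in Th1 (4.19 ± 0.22). Among 13 tested purine genes the ectoenzyme Nt5e was higher in Th17 and the receptors P2rx7 (2.67 ± 0.09) and Adora2a (1.72 ± 0.07) were higher in Th1.

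Proliferation genes were higher in Th17 by small amounts. Of 34 tested 21 were higher in Th17 and 6 higher in Th1 (median -0.24), and the only one past 2-fold was Cdkn2a, a cell cycle inhibitor higher in Th1 (3.39 ± 0.45, from 2.10 to 2.74 CPM in Th1 and 0 to 0.667 CPM in Th17). With only the 4 pairs of WT number 1 in Th17, 14 were higher in Th17 and 8 higher in Th1 (median -0.16). A fit over all 24 libraries gave 15 and 6. Mki67, which marks dividing cells, had 291, 347 and 359 CPM in Th1 and 450, 556 and 666 CPM in Th17 (-0.72 ± 0.07), and Mcm6, of the replicative helicase, differed by -0.80 ± 0.05. Of 26 tested genes of the p53 response and of apoptosis 15 were higher in Th1, among them Bcl2l11 (BIM; 1.21 ± 0.06), and 5 higher in Th17, led by Gadd45a (-2.30 ± 0.18). Heat shock genes were higher in Th1 in 10 of 14 tested, with Hspa1b at 1.54 ± 0.10. Hspa1a and Hspa1b are near-identical copies.

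Genes of killing and of other lymphocytes need the markers of those cells beside them. Of 13 tested cytotoxic genes 3 were higher in Th1 and 8 higher in Th17 (median -0.76), and of 10 tested killer cell receptor genes 1, Crtam (0.76 ± 0.08), was higher in Th1 and 8 higher in Th17 (median -1.69). Serpinb9, which protects against granzyme B, had 252 to 312 CPM in Th1 and 5.46 to 10.6 CPM in Th17 (5.19 ± 0.09), and the granule protein gene Nkg7 was higher in Th1 (2.53 ± 0.09). Gzma (-3.54 ± 0.37) and Gzmc (-2.90 ± 0.25) were higher in Th17, and Gzmb (-0.07 ± 0.18) and Prf1 (-0.29 ± 0.13) did not pass. Granzyme, Klr and Serpinb9 genes have close copies among which reads could be divided. Both CD8 coreceptor genes were higher in Th17, 1 of them past 2-fold. Cd8b1 had 18.8 to 23.7 CPM in Th1 and 20.4 to 46.1 CPM in Th17, so its libraries overlapped, with the lowest Th17 value in the WMS-83 library. Cd8a had 11.9, 13.2 and 13.7 CPM in Th1 and 31.8, 84.1 and 104 CPM in Th17, with the lowest Th17 value in the WMS-83 library, whereas the activated CD8 libraries had 353 to 412 CPM. The summed level of the 13 natural killer and gamma delta markers was 47.0 to 59.8 CPM in Th1, of which Eomes made up 42.6 on average, and 24.3 to 36.2 CPM in Th17. Trdc, the constant region of the delta chain, had 2.604 to 4.997 CPM in Th1 and 9.10 to 11.5 CPM in Th17, and the gamma chain genes Trgc1 (-2.66 ± 0.29) and Trgc4 (-2.39 ± 0.34) were higher in Th17. Ncr1 and Klrb1c, which define natural killer cells, had 33 and 18 reads in all Th1 libraries and 5 and 3 in all Th17 libraries. The part of such cells in the killing genes was not tested, and in bulk RNA more cells of a type and more RNA per cell cannot be told apart.

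Defining markers of B cells, granulocytes and red cells were at or near 0. Summed over 13 B cell markers the level was 55.9 to 65.4 CPM in Th1 and 46.4 to 61.8 CPM in Th17, of which Ighm made up 46.02 and 44.97 on average. Ms4a1, a defining marker of B cells, had at most 0.789 CPM in any library. The 20 myeloid and dendritic markers summed to 155 to 184 CPM in Th1 and 63.95 to 82.9 CPM in Th17, mostly Cd74 (132.5 and 48.8 on average), the invariant chain of class II molecules. H2-Ab1, a class II chain, was higher in Th1 (1.51 ± 0.20), while Lyz2 and Csf1r stayed at or below 1.74 CPM and S100a9 was at 0 in all 12 libraries. Cd68, known from macrophages, had 10.7 to 15.0 CPM in Th1 and 8.99 to 13.2 CPM in Th17. The 9 erythroid markers were Tfrc for nearly all of their level, and the adult beta globin genes Hbb-bs and Hbb-bt were at 0. The 15 stromal markers summed to 19.8 to 23.0 CPM in Th1 and 14.7 to 18.1 CPM in Th17, mostly Pecam1.

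General T cell genes were present in every library, with small shifts. Of 23 tested genes of T cell identity 12 were higher in Th1 and 4 higher in Th17 (median 0.18), and none was past 2-fold. Cd4 had 676, 709 and 729 CPM in Th1 and 403, 428 and 478 CPM in Th17 (0.72 ± 0.06), and Lcp2 (0.89 ± 0.06), Ptprc (0.82 ± 0.06), Cd6 (0.79 ± 0.05), Cd5 (0.73 ± 0.05) and Fyn (0.54 ± 0.05) had the same direction. Thy1 (-1.02 ± 0.06), Lat (-0.68 ± 0.06), Bcl11b (-0.52 ± 0.05) and Lck (-0.15 ± 0.06) were higher in Th17. Of the receptor chains and nearby signalling genes, Cd3e rose by 0.25 ± 0.05, Trac by 0.32 ± 0.06 and Trbc2 by 0.31 ± 0.06, and Cd3d (0.06 ± 0.07), Cd3g (0.05 ± 0.06), Cd247 (0.14 ± 0.06), Zap70 (0.11 ± 0.05), Cd2 (-0.12 ± 0.08) and Trbc1 (0.08 ± 0.06) did not pass. Zbtb7b, the factor of the CD4 fate, rose by 0.18 ± 0.05 with overlapping libraries.

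Among opioid genes a ligand precursor, Penk, was read at a high level. Only 2 of 8 listed opioid genes had enough reads to be tested. Penk encodes proenkephalin, the precursor of the enkephalins, which are known to act mainly on delta and mu opioid receptors. It had 728, 883 and 929 CPM in Th1 and 13.5, 16.8 and 34.4 CPM in Th17 (5.55 ± 0.20), and 539 to 595 CPM in the activated CD8 and 64.6 to 114 CPM in the Treg libraries. Pomc, the precursor of endorphin, rose by 0.96 ± 0.25, from 0.762 to 1.59 CPM in Th17 to 1.73 to 2.92 CPM in Th1. Oprk1, the gene of the receptor that the agonists target, had 5 reads over the 6 Th1 libraries and 0 over the 6 Th17 libraries, too few for a comparison.

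The agonist libraries differed from the DMSO library in few genes. A model with the 5 agonist libraries of a cell type against its DMSO library was fitted over all 12 libraries in edgeR. It takes the 5 compounds, with 1 library each, as replicates of one another and assumes that the DMSO library varies like them. An effect of a single compound therefore counts as spread in this model. In Th1 no gene passed (0.0% of 14053), 435 had an unadjusted p under 0.05, where 5% of the genes tested come to 702.65, and DESeq2 called 5 and limma-voom 1. The nearest was Il22, at 10.6 CPM in the DMSO library and 2.88 to 4.16 CPM in the 5 agonist libraries (-1.58 ± 0.26, adjusted p = 0.101 in edgeR). In Th17 5 genes passed (0.0356%), 687 had an unadjusted p under 0.05, also fewer than that 5%, and DESeq2 called 22. They were Penk (34.4 CPM with DMSO, 13.5 to 17.6 CPM with agonists; -1.10 ± 0.13), Akap1 (65.9 CPM with DMSO, 31.1 to 38.2 CPM with agonists; -0.93 ± 0.11), Rnf157 (44.9 against 25.6 to 27.8 CPM; -0.76 ± 0.12), Spry1 (70.9 against 107 to 133 CPM; 0.75 ± 0.12) and Nr4a3 (184 against 256 to 291 CPM; 0.56 ± 0.10). The count was 2 without the WMS-200 or without the WMS-64 libraries. Each of these tests rests on a single DMSO library, and the Th17 one is the only library of WT number 2, so vehicle and number cannot be told apart. In Th1, where all libraries share 1 number, Penk was 852 CPM with DMSO and 728 to 929 CPM with agonists, and Akap1 48.8 CPM and 47.1 to 53.7 CPM.

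The agonist effect was then compared between both fates. No gene passed the test of the difference between Th1 and Th17 (0.0%), 696 had an unadjusted p under 0.05, again fewer than 5% of the genes, and DESeq2 called 3. Penk (1.12 ± 0.19) and Akap1 (0.97 ± 0.17) were nearest, both with an adjusted p of 0.0892 in edgeR. The lineage cytokines did not pass in either fate: the agonist effect on Ifng in Th1 was -0.24 ± 0.30, that on Il17a in Th17 0.08 ± 0.44 and that on Il17f in Th17 0.19 ± 0.27. Differences among the 6 treatments that Th1 and Th17 shared were called for 1 gene (0.00712%), Gm8116, with an adjusted p of 0.0244 in edgeR and a range from 4.52 to 16.6 CPM in Th1 and 5.24 to 14.0 CPM in Th17. Its lowest level was with WMS-75 and its highest with DMSO in each cell type. DESeq2 called 19 such genes and limma-voom none.

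**Figure D5:**
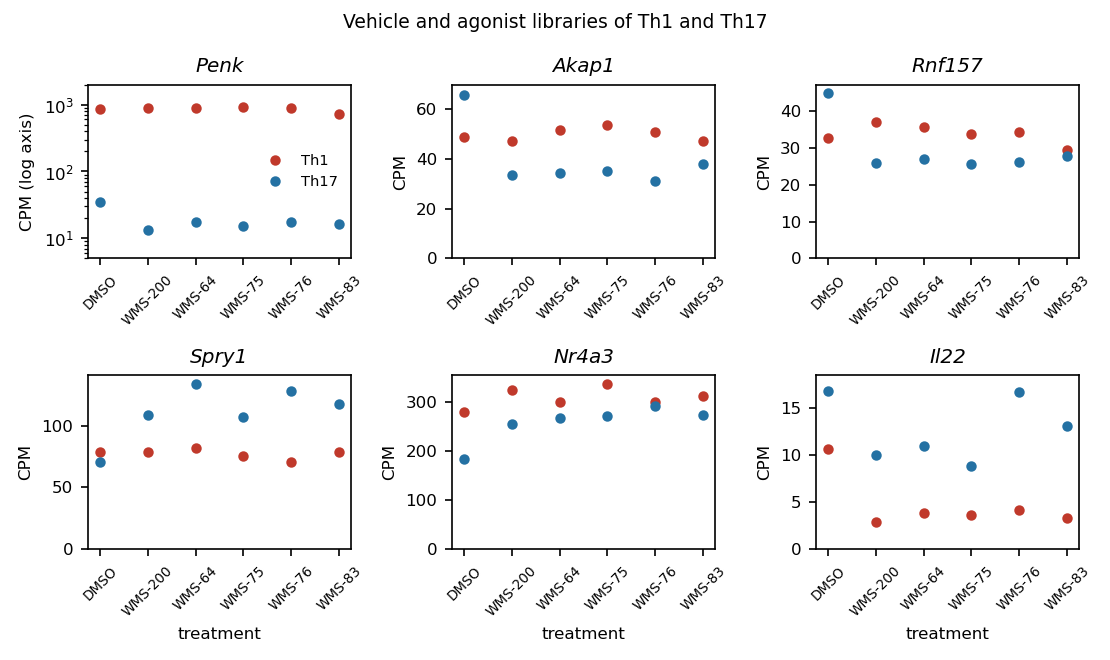
Level (CPM, y axis, with a log axis for Penk) of 6 genes in the library of each treatment (x axis), in Th1 (red) and Th17 (blue), each point being 1 library. In Th17 the DMSO library stands apart from the 5 agonist libraries for Penk, Akap1, Rnf157, Spry1 and Nr4a3, and in Th1 it does so for Il22.

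The other cell types of the study were placed on the axis between both fates by their mean log2 level of each gene, with 0.5 CPM added. Activated CD8 libraries lay nearer to Th1 than to Th17 for 89.7% of the 642 genes past 2-fold higher in Th1 and for 91.9% of the 652 past 2-fold higher in Th17, against 70.95% of all tested genes. The Treg libraries did so for 44.55% and 41.7%, against 42.3% of all. For Maf the CD8 libraries had 5.26 to 6.07 CPM, like Th1, and the Treg libraries 50.3 to 107 CPM.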

How the data were processed

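Poly(A) RNA sequencing of 24 libraries was deposited as 1 table of raw counts per gene, and the 12 Th1 and Th17 libraries were analysed. Per the submitters' processing notes, the authors' tools were HISAT2, fastp and featureCounts. The strand setting, versions, annotation and genome build were not found in the labels or the file, so overlapping and antisense genes cannot be told apart, and reads of near-identical copies may be divided among them.

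The deposited counts were scaled by TMM in edgeR 4.0.16 (R 4.3.3), filtered with filterByExpr at a minimum count of 10, and fitted with a treatment term and a cell type term (robust quasi-likelihood, 5 residual degrees of freedom). Calls have a Benjamini-Hochberg adjusted p under 0.05 over all 14053 genes tested, and a second test (glmTreat) asked for more than 2-fold. Agonists were compared with DMSO within each cell type in a model over the 12 libraries (8 residual degrees of freedom). Counting intervals of read ratios are exact at 95%.

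The text names genes of the Th1, Th17, T cell identity and opioid lists, the 12 largest rises and falls by fold and 8 by CPM, the 6 largest among transcription factors, the 2 largest rises and falls of each other list, and the 5 genes of smallest p in each agonist test, 243 in all, of which some are not reported here. Another 40 list members were chosen after their values were seen (such as Il10, Foxp3, Il3, Csf1, Cxcr4, Irf1, Hif1a, Smad7, Gbp2, Hk2, Cyp1a1, Gzmb, Mki67 and Tcf7), and genes named without a value count as such too. The libraries and all gene lists were chosen with earlier results of these data known. The fits were tested on simulated counts. There the Th1 agonist test recovered 92% of the genes changed 4-fold and 73% of those changed 2-fold, and called 14 unchanged genes. The test of the difference between Th1 and Th17 recovered 82% and 53% and called 22. Each simulated gene had the same mean in both cell types, and all 5 agonists shared each change. Changes were put only into genes above a low mean level, and libraries differed only in size and random spread. These shares may therefore be higher than in the real libraries. DESeq2 1.42.0 and limma 3.58.1 (voom) were alternatives.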

Additional observations from a re-analysis of the deposited data

Results flagged for a closer look

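In 49 of 566 groups of 6 libraries tested, 1 library lay far from the other 5 in the level of a named gene, where chance gives about 1 in 20 groups. The 17 genes named from the agonist tests were picked because DMSO or treatments differed, so that number is partly fixed by the choice of genes. Without them it was 38 of 532 groups, with 8 for the Th1 WMS-83 and 6 for the Th17 DMSO library. The Th17 DMSO library, the only one of WT number 2, was highest for Penk (34.4 CPM), Akap1 (65.9), Rnf157 (44.9), Lss (38.6), Arhgap19 (48.0), Ltb4r1 (10.9), Cx3cr1 (5.59) and Zfp442 (2.46), and lowest for Gbp5 (22.3), Nr4a3 (184), Egr3 (104) and Tiparp (44.3). The Th17 WMS-83 library, the only one of WT number 3, was highest for Cd6 (464 CPM), Cd5 (539) and Nr1d1 (87.4) and lowest for Gfi1 (13.9). Among the other Th17 libraries, WMS-75 was highest for Ahr (176 CPM), Flt3 (1.06) and Cxcl11 (0.0441, the single read), WMS-76 for Slc16a3 (30.1) and WMS-200 for Maf (428).

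Among the Th1 libraries, the one with WMS-83, whose title names Th17, was lowest for Selp (16.0 CPM), Il12rb2 (198), Tnfrsf9 (228) and Odc1 (874), and highest for Ifi47 (82.4), Slc38a2 (257.7), Slc38a1 (298) and Tgfbi (0.0511, the single read). The Th1 DMSO library was highest for Il22 (10.6 CPM), Hlx (8.78), H2-Q6 (7.21), Atp5g1 (98.7) and Rpl29 (1057), and lowest for Zfp442 (0.231). H2-Q6 and Rpl29 have near-identical copies. WMS-200 was highest for Trbc2 (368 CPM), Ly6c2 (7.62) and Eif3j2 (13.0) and lowest for Cd3e (159.6). WMS-75 was highest for Prf1 (10.1 CPM) and Nr1d1 (3.75) and lowest for Gusb (43.5) and Il10 (0.654). WMS-76 was highest for Etv4 (7.97 CPM) and lowest for Nqo1 (1.93), Tcf7 (461) and Cyp1a1 (1.48), and WMS-64 was lowest for Runx1 (50.8 CPM) and Ctsl (1.48). What sets these libraries apart was not tested.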

How the results depend on the processing

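The comparison of Th1 with Th17 kept its counts within 1.5 times under all alternatives run, with 82.47% to 99.74% of the 7438 calls shared. Of the 1294 calls past 2-fold, 73.72% to 99.85% were shared. The lowest share was at a minimum count of 50, where 10990 genes were tested, and DESeq2 shared 85.39% and limma-voom 87.64%. Leaving out each treatment pair gave 6647 to 7353 genes that pass (3185 to 3660 higher in Th1, 3460 to 3693 higher in Th17) and 1227 to 1273 past 2-fold (593 to 633 and 621 to 651). Only the 4 pairs with WT number 1 in Th17 gave 6338 and 1178. A pair of alternatives was chosen after seeing the data: without the WMS-75 and WMS-76 pairs 6715 passed, and with gene length offsets 7516. Without the replicate block (treatment term) 7685 passed, 3812 and 3873, and 1309 past 2-fold, 98.74% of the calls being shared. The treatments do not pair the libraries: deviations from the group means correlated between -0.120 and 0.124 for the 6 treatments, and 0 of 6 Th1 libraries correlated best with their own treatment.

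Counts of the agonist tests moved. Without a filter on low counts, 8 genes passed in Th1, 21 in Th17, 14 for the difference and 136 for shared treatments. DESeq2 gave 5, 22, 3 and 19. limma-voom gave 1 in Th1 and 0 for shared treatments, which library size scaling and a minimum count of 50 also put at 0. Leaving out each agonist gave 0 to 4 in Th1, 2 to 6 in Th17, 0 to 3 for the difference and 0 to 2 for shared treatments. Without the DMSO pair, also chosen after seeing the data, 1 gene passed for shared treatments, and the agonist tests have no vehicle to compare with. The cause was not tested.

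Over 283 named genes and 18 alternatives, 4987 of 5064 values kept direction and call, 37 lost the call, 19 gained it and 21 changed sign. Il18r1 became -0.012 with library size scaling, -0.028 without a filter, -0.0035 at a minimum count of 50 and -0.062 without the WMS-75 and WMS-76 pairs. Il2 became 0.088 without these pairs. With WT number 1 only, Gzmb became 0.010, Arhgap19 0.019 and Zfp442 0.32, and with length offsets Trbc1 became -0.047 and Batf -0.0037. Leaving out single treatments gave ranges of -0.047 to 0.034 for Il18r1, -0.21 to 0.044 for Il2, -0.028 to 0.18 for Rpl29, -0.17 to 0.096 for Gzmb, -0.33 to 0.37 for Zfp442, -0.023 to 0.12 for Cd3d and -0.0070 to 0.11 for Cd3g.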

Other observations

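Zinc finger transcription factors of the C2H2 family, a large family of DNA-binding proteins in mammals, leaned to Th17. Of 430 tested 152 were higher in Th17 (35.4%) and 55 higher in Th1 (12.8%), with a median of -0.12, against 26.5% and 26.4% of all genes tested. With gene length offsets the counts were 142 and 64. Processed pseudogenes, copies of spliced messengers, had 112 of 643 tested genes higher in Th1 (17.4%) and 25 higher in Th17 (3.89%). With gene length offsets these became 70 and 55, and the median length of these pseudogenes is 638 bases against 4012 for all genes tested. T cell receptor V segments, of which 12 of 49 were higher in Th1 (24.5%) and 2 higher in Th17 (4.08%), came to 8 and 6 with the offsets. Over expressed genes the rank correlation of the fold change with gene length was -0.157, across genes, which are not independent replicates.

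Of the ion channel, water channel and calcium entry genes 11 of 21 tested were higher in Th17, among them Aqp9 (-4.07 ± 0.42), and 5 higher in Th1, among them Cacnb3, a calcium channel subunit (2.66 ± 0.09). Of 21 tested lysosome genes 11 were higher in Th17 and 5 higher in Th1. Of 17 tested feedback genes of cytokine signalling 9 were higher in Th17, with Socs2 (-1.96 ± 0.06) and Cish (-0.97 ± 0.06) lowest, and 5 higher in Th1.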
